A study of Homo sapiens with 4 samples.

Results

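TXNIP encodes thioredoxin-interacting protein, and its messenger RNA was described here in 2 human gastric cancer cell lines with and without isorhamnetin (ISO), a flavonoid from plants. It is 1 of the 2897 genes in the table of the study, and it was found there by its symbol. The gene was selected on its own fall under ISO in these same libraries, so the size of that fall and its rank are given as a description, with no test. RNA was sequenced from AGS-1 cells, which the labels call gastric adenocarcinoma cells, and from HGC-27 cells, another gastric cancer line. In each line, untreated wild-type cells were set beside wild-type cells given 50 μM ISO for 24 h according to the labels. The text of the study gives another dose for its sequencing. The labels name no vehicle for the untreated cells, so an effect of any solvent cannot be told apart from that of ISO. Each of the 4 conditions was represented by 1 column of values and 1 labelled sample, so the spread between cultures could not be measured within a line, and the intervals below cover counting error only. The text of the study speaks of duplicates for its sequencing, and whether a column is a single library or a pool of duplicates is not given in the sources used here. Each is called a library below. Values are FPKM, fragments scaled by the length of the gene and by the size of the library, which allows levels of different genes to be compared per length. In RNA from whole cultures, fewer expressing cells and less RNA per cell cannot be told apart.

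TXNIP is an alpha-arrestin, a relative of the arrestins that couple membrane proteins to endocytosis. It binds reduced thioredoxin through a disulfide bond and so lowers the reducing capacity of the cell, and it promotes the removal of the glucose transporters GLUT1 and GLUT4 from the cell surface. Its transcription follows the supply of glucose, because the factors MondoA and ChREBP, each together with its partner MLX, bind a carbohydrate response element in its promoter. The protein is short-lived, being marked for degradation by the ubiquitin ligase ITCH and phosphorylated by AMPK. Low TXNIP is a common feature of tumour cells that take up much glucose.

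The gene (ENSG00000265972) lies on the minus strand of chromosome 1, at chr1:145992435-145996579 of GRCh38 as the table gives it. GENCODE 29 lists 4 transcripts for it, of which 2 are coding and 2 retain an intron. The main coding transcript has 8 exons and 2926 bases, of which the 3′ untranslated region takes 1419. The length of 3604 bases by which the table divides equals the union of all GENCODE exons inside that span, retained introns included, and is 1.23 times the main transcript. An FPKM of TXNIP in this table is therefore lower than one per length of the main transcript, by the same factor in all 4 libraries. No annotated gene overlaps TXNIP. The nearest one in the annotation, POLR3GL, ends 13587 bases away, and 0 other genes within 500 kb are in the table, so the neighbourhood could not be compared with TXNIP.

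The stretch before the transcript start carries the glucose-responsive elements of the gene, and it is shown because the RNA falls in both lines. From RefSeq on GRCh38.p14, chr1:145996601-145996829 on the minus strand covers positions -250 to -22 relative to the RefSeq start. It has 229 bases, of which 63.8% are G or C. Capitals mark, in order, the box CCAAT read on the reverse strand (ATTGG as printed), the forkhead-type motif GTAAACA, the same box CCAAT on the forward strand, the pair of CACGAG boxes and, last, TATATA. The sequence runs 5′ to 3′ on the strand of the gene.
TXNIP: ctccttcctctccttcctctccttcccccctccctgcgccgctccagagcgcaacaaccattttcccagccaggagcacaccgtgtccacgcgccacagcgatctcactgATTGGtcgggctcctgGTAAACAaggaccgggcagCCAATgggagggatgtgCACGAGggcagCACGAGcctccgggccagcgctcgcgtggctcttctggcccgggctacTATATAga

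The pair of CACGAG boxes occupies positions -88 to -72 and has the layout of a carbohydrate response element, with E-box-like sequences separated by 5 bases. Motifs were chosen after this sequence had been seen, and 7 were searched on both strands. A pair of CACGNG boxes separated by 5 bases was found in 14 of 35116 promoter windows of the same length and place, a share of 0.0399%. It was found in 6 of the 2243 genes of the table with a window, or 0.267%. The search asked for 2 boxes of this form in the same orientation, so these shares are of this layout and not of all carbohydrate response elements. None of the 6 other glucose-induced targets of MondoA and ChREBP in the table was among the genes found. Whether each of those targets had a window was not listed. The single box CACGAG was present in 5.09% of all windows, including those with the pair. The canonical E-box CACGTG, present in 5.72%, was absent from the TXNIP window. CCAAT, the core of the sequence bound by NF-Y, matched in 30.6% of windows, and TXNIP has a match on each strand, at -140 to -136 and at -105 to -101. GTAAACA, the core of forkhead factor sites, matched at -124 to -118 and is held by 2.74% of windows. TATATA matched at -29 to -24 and in 3.63% of windows, while TATAAA, held by 10.3%, was not found in the TXNIP window.

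**Figure D1:**
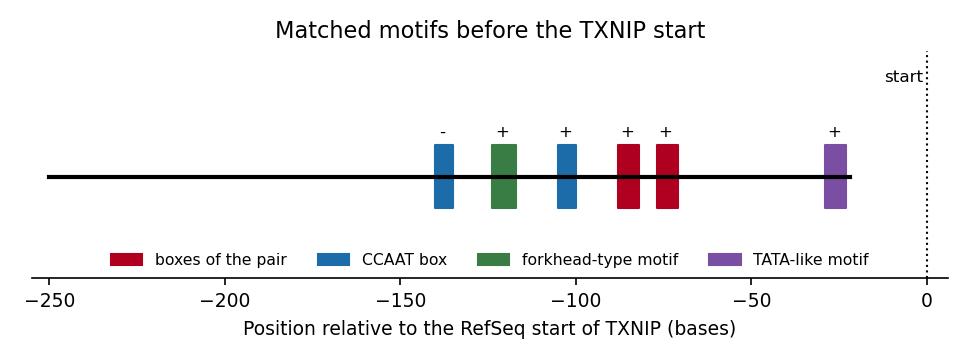
Positions of the matched motifs before the start of TXNIP, in bases relative to the RefSeq start, drawn to scale. The black line spans the 229 bases examined, coloured boxes are matches, and the sign above each gives its strand relative to the gene. The 2 boxes of the pair lie between -88 and -72, nearer to the start than both CCAAT boxes and the forkhead-type motif.

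The other genes of the table with the same layout are shown to compare their sites and their RNA with TXNIP. Whether MondoA or ChREBP binds any of these sites was not tested. Capitals mark the boxes on the strand of the site.
TXNIP: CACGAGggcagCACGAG
KCTD5: CACGAGcggtgCACGAG
GFPT1: CACGCGccgctCACGCG
RAN: CACGCGcgggcCACGTG
RCN3: CACGAGcgtctCACGGG
P4HA1: CACGGGccggcCACGGG
The TXNIP site is at chr1:145996651-145996667 and that of KCTD5, which has the same boxes on the opposite strand of its gene, is at chr16:2682290-2682306. KCTD5, an adaptor of a CUL3 ubiquitin ligase, was at 38.2 FPKM before and 20.1 FPKM after ISO in AGS-1, and at 27.2 and 17.1 FPKM in HGC-27. Its log2 ratios were -0.90 and -0.64. GFPT1, the entry enzyme of the hexosamine pathway, had 57.7 FPKM without and 28.6 FPKM with ISO in AGS-1, and 22.0 and 20.5 FPKM in HGC-27, with log2 ratios of -0.99 and -0.10. The log2 ratios of RAN, RCN3 and P4HA1 ranged from -0.53 to -0.01 over both lines. By these log2 ratios, taken on FPKM + 1, TXNIP, which was selected for its fall, was the 1 of the 6 that fell at least 2-fold in either line. Over all genes tested, 6.66% fell this far in AGS-1 and 0.937% in HGC-27, so no such fall among the 5 others is not read as a result. GFPT1 in AGS-1 lay at the edge of this cut, since its FPKM without the added 1 fell just over 2-fold. Without TXNIP, the medians over the 5 other genes were -0.51 and -0.19, beside medians over all genes tested of -0.29 (AGS-1) and -0.11 (HGC-27). All 5 had lower values with ISO in both lines on the deposited scale, as had 56.2% of all genes tested. With median-of-ratios scaling 2 of the 5 did, beside 37.9% of all genes, and with upper-quartile scaling 1 did, beside 24.3%.

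In untreated AGS-1 cells, TXNIP stood at 312 FPKM (95% exact binomial counting interval 308 to 317), from 17142 of 15235004 fragments. In AGS-1 with ISO it stood at 65.1 FPKM (63.0 to 67.2), from 3745 of 15957590 fragments. The HGC-27 control had 128 FPKM (126 to 131), from 9332 of 20199425 fragments. HGC-27 with ISO had 14.9 FPKM (14.0 to 15.9), from 918 of 17072456 fragments. Both ISO libraries were thus below both controls, and the AGS-1 library was above the HGC-27 library with and without ISO. The 4 counting intervals did not overlap.

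**Figure D2:**
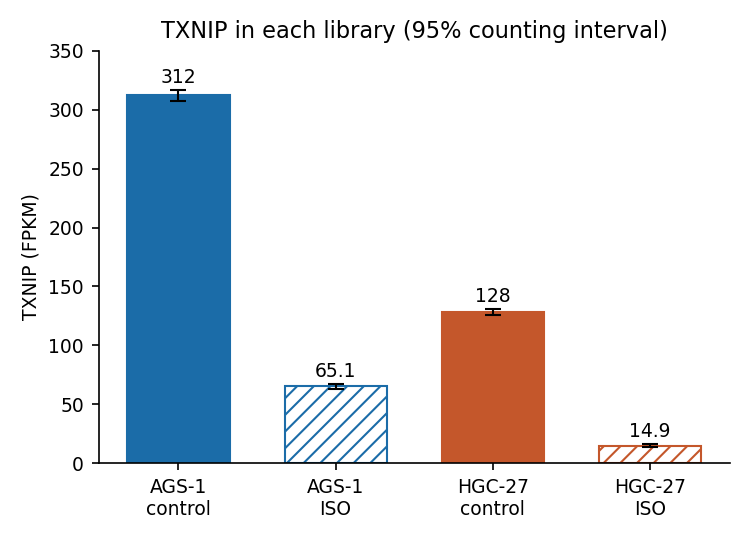
TXNIP in FPKM (vertical axis, from 0) in the 4 libraries, with filled bars for the controls, hatched bars for ISO and whiskers for the 95% counting interval. The controls stand at 312 and 128 FPKM and the ISO libraries at 65.1 and 14.9 FPKM, with 1 library per bar.

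Among the 2897 genes of the table, TXNIP held rank 99 in the AGS-1 control, where 3.38% of the genes were higher. With ISO it held rank 455, and 15.7% of the genes were higher. In HGC-27, its rank went from 200 in the control to 2286 with ISO, where 78.9% of the genes were higher. The median gene had 33.5 and 26.7 FPKM in AGS-1 without and with ISO, and 27.6 and 25.6 FPKM in HGC-27. TXNIP was therefore 9.31 and 2.44 times the median gene in AGS-1, and 4.65 and 0.583 times the median gene in HGC-27. A transcript that 6.87% of the genes exceeded in the HGC-27 control was thus below the median gene under ISO. The table holds a selection of genes, so these are ranks within it and not within the transcriptome.

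**Figure D3:**
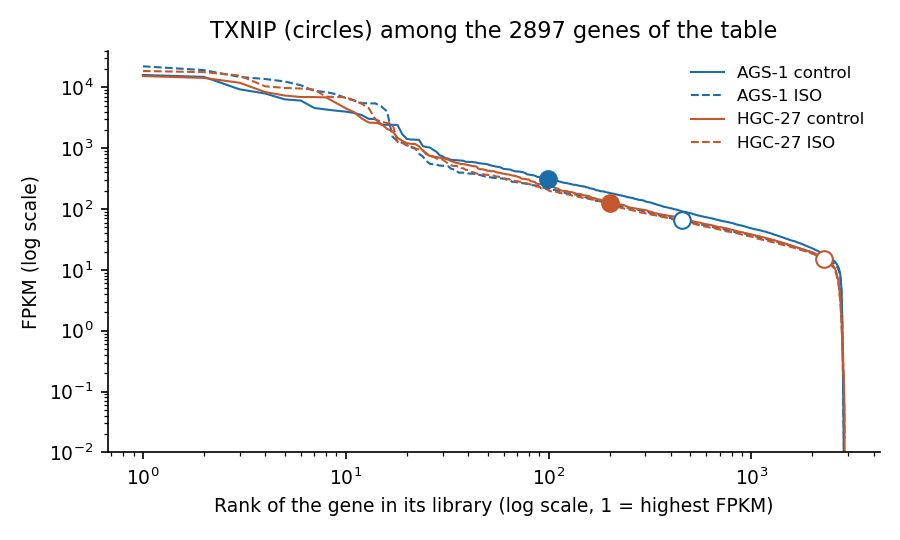
FPKM (log scale) against the rank of each gene in its library (log scale, 1 is the highest), 1 curve per library, with TXNIP as circles, filled for the controls and open for ISO. The circle moves from rank 99 to 455 in AGS-1 and from rank 200 to 2286 in HGC-27.

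The change under ISO is the log2 of the ratio of FPKM + 1 to that of the control of the same line, where the added 1 understates the change of low values. In AGS-1 the log2 ratio was -2.24 (counting SE 0.0260), and TXNIP was 4.79-fold lower with ISO (counting interval 4.63 to 4.97), with 20.9% of the control level left. In HGC-27 it was -3.02 (counting SE 0.0499), or 8.59-fold lower (8.03 to 9.20), with 11.6% left. The median gene was also lower with ISO on the deposited scale, with the -0.29 and -0.11 given above. Relative to these medians the log2 ratio of TXNIP was -1.96 (AGS-1) and -2.92 (HGC-27). The fall in HGC-27 exceeded that in AGS-1 by 0.84 on the log2 scale without the added 1 (counting interval of the difference, HGC-27 minus AGS-1, -0.95 to -0.73). Whether it exceeds the spread between cultures was not tested. The ratio of AGS-1 to HGC-27 was accordingly 2.44 (2.37 to 2.50) in the controls and 4.36 (4.06 to 4.70) with ISO.

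The fall of TXNIP held rank 7 in AGS-1 among the 2883 genes whose mean reached 1 FPKM, and rank 1, the largest, in HGC-27. With a pseudocount of 0.1 FPKM the ranks were 11 and 2. A fall of at least 2-fold was seen for 192 genes (6.66%) in AGS-1 and for 27 (0.937%) in HGC-27, and 9 genes (0.312%) had it in both lines, TXNIP among them. The genes ahead of TXNIP in AGS-1 included an unnamed transcript, CITED4, AQP3, DKK1 and CTNNAL1. CTNNAL1, a relative of alpha-catenin, stood next to TXNIP with -2.25, and CD83, a surface protein of the immunoglobulin family, came after it with -2.14. In HGC-27 a gap followed TXNIP, since the next genes were an unnamed transcript with -2.18 and IGFBP3, a binding protein of insulin-like growth factors, with -2.09. Because TXNIP held rank 1 in HGC-27, 0 genes could have both log2 ratios lower than its own. The sum of its 2 ratios, the lowest of all genes tested, describes the same fall on which the gene was selected.

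The genes whose changes were most like those of TXNIP included INHBE, AJUBA, DKK1 and TMSB4XP8, by Euclidean distance over the 2 log2 ratios. By this distance, INHBE, an inhibin beta subunit, was at 1.87 from TXNIP, AJUBA, a LIM-domain scaffold, at 1.88, and DKK1, a secreted inhibitor of Wnt signalling, at 1.93. TMSB4XP8 is a processed pseudogene at 2.11, whose fragments may belong to its parent gene. By the distance over the 4 library values, centred on each gene, AJUBA (1.36) came first, and TMSB4XP8 (1.56), H1-10 and AXIN2 (both 1.65) were also among the 5 nearest. AJUBA had 100.2 FPKM without and 37.8 FPKM with ISO in AGS-1, and HGC-27 had 25.1 FPKM without and 9.26 FPKM with ISO, so like TXNIP it was higher in AGS-1 than in HGC-27 in both conditions. These genes were picked for their likeness over 2 lines or 4 libraries, and no test is attached to it.

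The 9 genes that fell in both lines included TXNIP, DKK1, INHBE, AJUBA, the linker histone H1-10, the ephrin receptor EPHA2, the Wnt antagonist AXIN2 and 1 unnamed transcript. Besides TXNIP, 4 of them had a promoter window in the reference, DKK1, AJUBA, H1-10 and EPHA2. None of these windows held the pair of CACGNG boxes or GTAAACA, which 0.267% and 2.05% of the genes of the table with a window held. With shares this low, their absence from 4 genes does not set TXNIP apart. AJUBA shared the CCAAT box with TXNIP in 1 of its 2 windows, a box held by 43.3% of the genes of the table with a window.

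**Figure D4:**
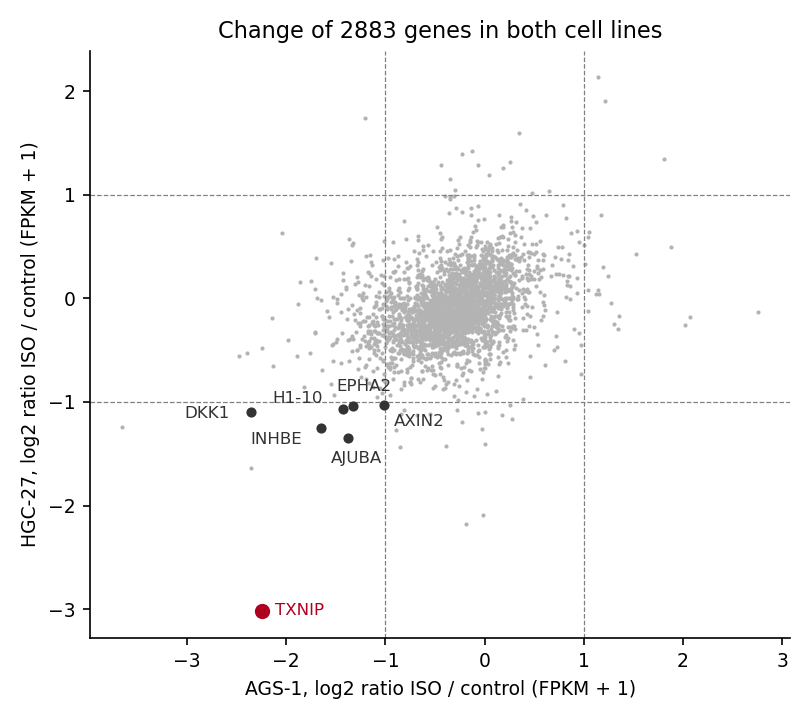
Log2 ratio of FPKM + 1, ISO over control, in AGS-1 (horizontal axis) and HGC-27 (vertical axis) for 2883 genes in grey, with dashed lines at a 2-fold change. TXNIP (red) lies at -2.24 and -3.02, below every other gene on the vertical axis, and the black points are the genes named in the text that fell at least 2-fold in both lines.

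TXNIP was next set beside the genes it acts with. The groups below were written by hand and hold 151 genes, of which 53 were in the table. In AGS-1, 4 of the 53 (7.55%) fell at least 2-fold and 2 (3.77%) rose, beside 6.66% and 0.832% of all genes tested. In HGC-27, 1 (1.89%) fell and 0 rose, beside 0.937% and 0.555%. Their median log2 ratios were -0.24 and -0.12, close to the medians over all genes. The sign of small ratios depended on the scaling. In AGS-1, 24 of the 53 had the other sign with median-of-ratios and 31 with upper-quartile scaling, and in HGC-27 2 and 6 had, with 0 genes changed at least 2-fold among them. Of the genes named below, these were TXNRD1, PRDX1, ATF4, GAPDH and TSC22D3 under both scalings and TXN2 and DUSP1 under upper-quartile scaling in AGS-1, and in HGC-27 TXNRD1 under both and GAPDH under upper-quartile scaling. A change shared by both lines was tested with limma on all 4 libraries, with the cell line in the model. It called 24 genes lower (0.832%) and 3 higher (0.104%) with ISO at an adjusted p under 0.05, and 0 of the 53 listed genes. At an unadjusted p under 0.05, 11 of the 53 passed in limma, 10 lower and 1 higher, beside 578 of all 2883. The test has 1 residual degree of freedom, and its 27 calls became 0 with median-of-ratios or upper-quartile scaling.

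The RNA of its main partner comes first. TXN, the cytosolic thioredoxin that TXNIP binds, stood at 169 FPKM in untreated AGS-1 cells and at 189 FPKM with ISO. In HGC-27 these values were 189 and 215 FPKM. Its log2 ratios of 0.16 and 0.18 had a limma adjusted p of 0.71. Since both RNAs were read in the same libraries, their ratio does not depend on the scaling between libraries. TXNIP was 1.85 times TXN in the AGS-1 control and 0.344 times TXN with ISO, a 5.37-fold lower ratio. In HGC-27 it went from 0.679 to 0.0695 times TXN, which is 9.76-fold lower. Messenger levels say nothing of how much of the protein pair is formed.

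Of the thioredoxin system, 12 of 27 listed genes were in the table, and 0 changed at least 2-fold in either line. Their medians were -0.24 (AGS-1) and -0.10 (HGC-27). TXNRD1, the reductase that recharges thioredoxin, had -0.04 and -0.03. TXN2, the mitochondrial thioredoxin, had -0.28 and -0.17. The peroxiredoxins, which pass electrons from thioredoxin to peroxides, included PRDX1 with -0.15 and 0.12 and PRDX5 with -0.74 and -0.29. The lowest of the group was NXN, nucleoredoxin, at 26.5 and 13.4 FPKM in AGS-1 and 29.1 and 19.1 in HGC-27. Its ratios were -0.93 and -0.59, with a limma adjusted p of 0.0818, the smallest among the 53 listed genes.

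Glucose uptake and phosphorylation had 7 of 18 listed genes in the table, and in AGS-1 a fall of at least 2-fold was seen for 2. SLC2A1, which encodes the transporter GLUT1 that TXNIP removes from the surface, went from 545 to 224 FPKM in AGS-1, a log2 ratio of -1.28. In HGC-27 it stood at 18.5 FPKM without and 20.7 FPKM with ISO, a log2 ratio of 0.16. HKDC1, a hexokinase, went in AGS-1 from 62.2 to 29.6 FPKM (-1.04) and was at 2.32 and 2.88 FPKM in HGC-27 (0.23). TXNIP and these 2 genes were thus all lower with ISO in AGS-1, whereas in HGC-27 TXNIP was lower and their values were not. HK2, the inducible hexokinase, had -0.92 and -0.31, and SLC2A3, the transporter GLUT3, had -0.46 and -0.41. The medians of the group were -0.46 and -0.23.

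The MLX-MAX network, the family of the factors that drive TXNIP, had 3 of 14 listed genes in the table, none changed at least 2-fold, and medians of -0.10 and -0.03. MondoA (MLXIP), ChREBP (MLXIPL) and MLX were not among them. MYC, the growth-promoting member of the network, had 99.3 and 50.3 FPKM in AGS-1 and 71.7 and 56.6 in HGC-27, with ratios of -0.97 and -0.34 and a limma adjusted p of 0.155.

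Of the other glucose-induced targets of MondoA and ChREBP, 6 of 15 were in the table, with medians of -0.01 and -0.19. They did not move together in AGS-1. RGS16, a regulator of G-protein signalling, went from 68.7 to 27.3 FPKM (-1.30), whereas the lipogenic enzymes FASN and SCD rose from 58.7 to 140.3 FPKM (1.24) and from 217 to 449 FPKM (1.05). In HGC-27 none of the 6 changed 2-fold, with -0.32 for RGS16, 0.21 for FASN and 0.08 for SCD. KLF10, a zinc-finger repressor, had -0.72 and -0.53, with a limma adjusted p of 0.121. ARRDC4, the alpha-arrestin closest to TXNIP in its glucose response, was not in the table, and neither were the 4 other alpha-arrestins listed. TXNIP could therefore not be compared with these relatives.

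Of the other transcription factors linked to TXNIP, 5 of 18 were in the table, with 0 changed at least 2-fold and medians of -0.15 and 0.04. HIF1A, the hypoxia-inducible factor, had -0.80 and -0.40, and NFE2L2, the factor NRF2 that represses TXNIP in some cells, had -0.54 and -0.55. ATF4, a factor of the integrated stress response, had -0.15 and 0.04. The ubiquitin ligases and AMPK subunits that control the stability of the protein had 0 of 14 listed genes in the table.

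Among the binding partners of the protein, 7 of 15 were in the table, with medians of -0.28 and 0.16. SLC2A1, which this group shares with glucose uptake, was the 1 that fell at least 2-fold, in AGS-1. DDIT4, the stress-induced inhibitor of mTORC1 also called REDD1, went from 456 to 254 FPKM in AGS-1, while HGC-27 had 510 FPKM without and 278 FPKM with ISO. Its ratios were -0.84 and -0.87, with a limma adjusted p of 0.132.

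Glycolysis and lactate export had 13 of 18 listed genes in the table, with medians of -0.18 and -0.12. SLC16A3, the lactate exporter MCT4, went in AGS-1 from 69.5 to 26.1 FPKM (-1.38) and was at 1.25 and 1.09 FPKM in HGC-27 (-0.11). The other 12 changed less than 2-fold in both lines by the ratio of FPKM + 1. Among them, ENO2 was near 0 in AGS-1, at 0.046 FPKM without and 0.263 FPKM with ISO (3 and 18 fragments). There the added 1 holds its log2 ratio at 0.27, and in HGC-27 it had 0.69. GAPDH, a central enzyme of the pathway, had -0.15 and -0.10.

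Of the FOXO and glucocorticoid targets, a group that shares inducers with TXNIP, 3 of 13 were in the table, with medians of -0.35 and -0.20. TSC22D3, the glucocorticoid-induced leucine zipper GILZ, went from 40.1 to 16.2 FPKM in HGC-27 (-1.26) and was at 0.248 and 0.224 FPKM in AGS-1. DUSP1, a phosphatase of MAP kinases, had -0.35 and -0.20.

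**Figure D5:**
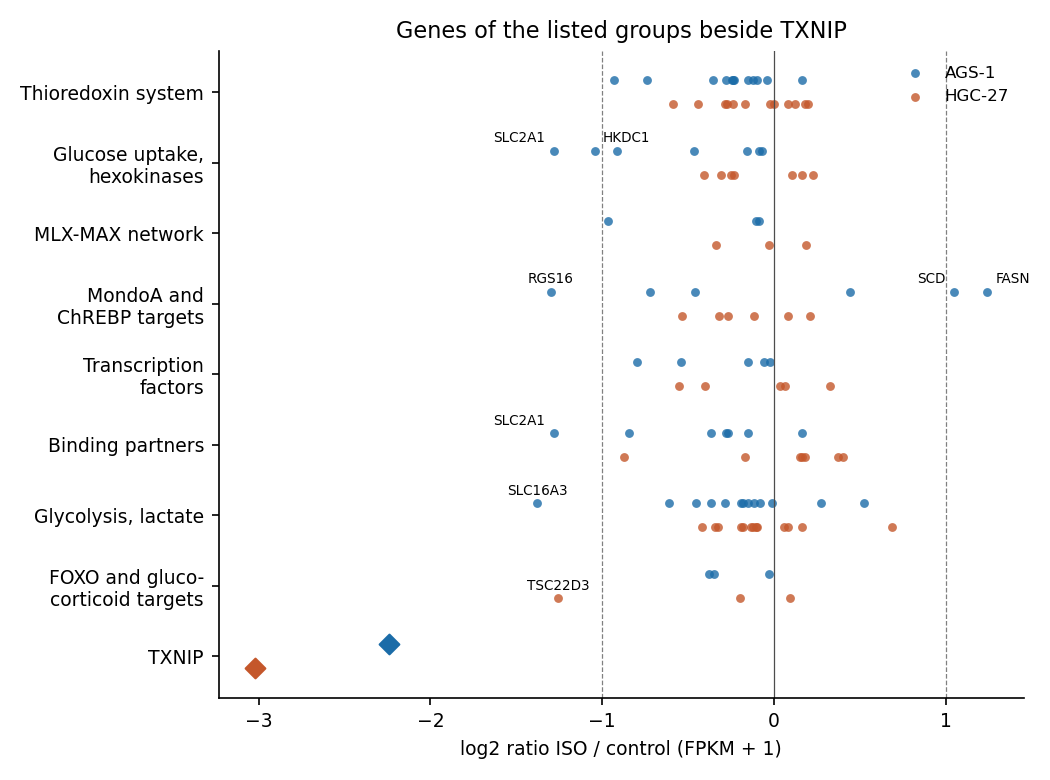
Log2 ratio of FPKM + 1, ISO over control (horizontal axis), of each listed gene in the table, by group, with AGS-1 in blue and HGC-27 in orange, TXNIP as diamonds, and names for genes past the dashed lines at a 2-fold change. All listed genes lie between -1.38 and 1.24, while TXNIP lies at -2.24 in AGS-1 and -3.02 in HGC-27.

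The lines differed in cell type markers as well as in TXNIP. Of 7 epithelial markers 5 were in the table, and they summed to 2130 FPKM in untreated and 1360 FPKM in treated AGS-1 cells, but to 4.42 and 3.58 FPKM in HGC-27, where KRT19 was at 0. Of 5 mesenchymal markers 2 were in the table, VIM and TWIST1, which summed to 640 and 404 FPKM in HGC-27 and to 0.697 and 0.860 FPKM in AGS-1, where TWIST1 was at 0. The epithelial transcripts were thus low in HGC-27, where KRT8 was the highest at 2.19 FPKM in the control. Of 9 fibroblast, leukocyte and endothelial markers 3 were in the table, summing to 604 and 320 FPKM in AGS-1, most of it from the lysozyme gene LYZ, and to 776 and 602 FPKM in HGC-27, all of it from the collagens COL1A1 and COL3A1. The summed markers of each line were lower with ISO, as TXNIP was. Single markers differed, since in AGS-1 KRT18 had a log2 ratio of -0.91 and LYZ -0.92, whereas CLDN4, at 218 FPKM without and 225 FPKM with ISO, had 0.05. In HGC-27 TWIST1 had -1.10 and VIM -0.30. The log2 ratio of TXNIP was below that of each marker of its line in the table. The part of these differences in the level or fall of TXNIP was not tested.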

How the data were processed

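RNA from untreated and ISO-treated AGS-1 and HGC-27 cells was read with an mRNA library kit on an Illumina instrument. Each line had 1 labelled sample per condition. The authors deposited FPKM values for 2897 genes, with gene lengths and GRCh38 coordinates. The submitters' processing notes name HISAT2, CASAVA 1.8 and GRCh38, while the counter, the annotation and the selection of genes are not given in the sources used here. FPKM times gene length was a whole number of fragments, within 0.1, for 100% of values, which gave back fragments and library totals (15235004 to 20199425). The genes of the table held 60.0% to 78.5% of them. Counting intervals are 95% exact binomial (Clopper-Pearson) and cover counting error only.

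A pseudocount of 1 FPKM was added before log2 ratios were taken on the deposited scale. With 1 library per condition, no p-value was computed within a line, and changes were counted at 2-fold (log2 ratio of 1). For the change common to both lines, limma 3.58.1 (R 4.3.3, trended eBayes, terms for treatment and cell line, Benjamini-Hochberg, threshold 0.05) was run over the 2883 genes whose mean reached 1 FPKM. It was first tried on simulated counts, where changed genes had the same change in both lines and rises equalled falls. These data differ in both respects, so that trial does not show how the test performs on them. The 1 residual degree of freedom of the limma test is how the ISO change differs between the lines, not a spread between replicate cultures.

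TXNIP, the 10 groups and 3 marker lists were chosen with earlier results of these data known. Named are TXNIP, listed genes that changed at least 2-fold or passed limma with 2 to 4 others per group for their role, the 5 nearest genes by each distance, rank neighbours, and genes that fell at least 2-fold in both lines. GFPT1, KCTD5 and the other genes with the paired site were chosen after their values were seen. A gene that this rule names is not reported here. GENCODE 29 gave the gene model and RefSeq the promoters. Other pseudocounts (0.1 and 5 FPKM), filters (none, or a mean of at least 10 FPKM), median-of-ratios and upper-quartile scaling, and a model without the cell line were tried. The remaining steps ran in Python 3.11.15 (scipy 1.17.1, numpy 2.4.6, matplotlib 3.10.9, pandas 2.3.3).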

Additional observations from a re-analysis of the deposited data

Results flagged for a closer look

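Among the 53 listed genes around TXNIP, 4 moved in opposite directions in the lines by more than their counting error. They did so under the deposited, the median-of-ratios and the upper-quartile scaling alike. The share of all genes tested that did so was not computed, so 4 of 53 is not read as a trait of the listed genes. The difference of the log2 ratios, HGC-27 minus AGS-1, was 1.44 for SLC2A1 (-1.28 in AGS-1, 0.16 in HGC-27) and 0.69 for PFKP, a phosphofructokinase (-0.61 and 0.08). It was -0.71 for ACLY, which makes cytosolic acetyl-CoA (0.44 and -0.27), and -0.87 for ALDOC, an aldolase (0.53 and -0.34). With 1 library per condition, these differences between lines were not tested against the spread between cultures. TXNIP is not among them, since it was lower with ISO in both lines under each of these scalings.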

How the results depend on the processing

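TXNIP was lower with ISO in both lines, under each of the 4 alternatives tried for its ratio. In AGS-1 the ratio was -2.18 with a pseudocount of 5 FPKM, -1.97 with median-of-ratios scaling and -1.82 with upper-quartile scaling, and in HGC-27 it was -2.74 with a pseudocount of 5 FPKM and -2.88 with upper-quartile scaling. Its rank among falls moved beyond 1.5 times only with a pseudocount of 0.1 FPKM, to 11 (AGS-1) and 2 (HGC-27). The genes that fell at least 2-fold in both lines numbered 18 with a pseudocount of 0.1 FPKM and 4 with upper-quartile scaling. The 6 listed genes changed in AGS-1 became 2 with upper-quartile scaling, where FASN and SCD remained and the 4 falls were under 2-fold. That scaling also set the split of all calls, which went in AGS-1 from 192 falls and 24 rises to 42 and 60, while HGC-27 had 15 and 26 in place of 27 and 16. Median-of-ratios scaling gave 72 falls and 50 rises in AGS-1. The limma calls, 27 as reported, numbered 107 with a pseudocount of 0.1 FPKM, 12 with 5 FPKM, 6 with no filter, 104 over genes whose mean reached 10 FPKM, and 0 with median-of-ratios scaling, upper-quartile scaling or no term for the cell line. Listed genes passed limma only with a pseudocount of 0.1 FPKM or over genes whose mean reached 10 FPKM, 2 each time, RGS16 and NXN. For the 7 listed genes that changed at least 2-fold, 18 of 28 alternative values moved beyond their counting interval and 0 changed sign, while smaller ratios of other listed genes did change sign with the scaling. The labels give no replicate numbers, and the cell line is the only pairing in the model.

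Depth is not what limits the values of TXNIP, since the lowest library still held 918 of its fragments. The limits are the single library per condition, the unknown selection of the genes in the table, the share of fragments outside it (which differed between the AGS-1 libraries), and the dose, on which the labels and the study's text differ. Controls labelled untreated, with no vehicle named, are a further limit.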
